A study of Mus musculus with 10 samples.

Results

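Exons that were more included in brain than in 9 other mouse tissues were described from a splicing array, as 59 of the 3126 alternative splicing events the array measured. An event here is an internal exon that can be kept or left out, together with its flanking exons. Exon probes lie in each flanking exon (C1 and C2) and in the alternative exon (A). Of the junction probes, C1:A and A:C2 match the junctions made when the exon is included, and C1:C2 matches the junction made when it is skipped. A probe of each event is marked INT, and what it measures is not stated in the sources used here. These roles follow the labels and the endings of the probe names.

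Members were chosen from 2 indices of inclusion. The junction index takes C1:C2 away from the average of both inclusion junctions, and the body index takes the average flanking exon away from A. A member's junction index in brain lay at least 0.8 units, and its body index at least 0.4 units, over the median of the other 9 tissues. Both flanking exons also had to read 2.1 or more in brain and in at least 8 of the 10 tissues, which 1094 events did. The members were thus 5.39% of the events past this filter, and since the rule used the brain contrast, their indices in brain are given as a description.

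Besides brain, the tissues were muscle, heart, testis, salivary, lung, spleen, liver, kidney and intestine, all from CD1 mice, an outbred stock. Each tissue was 1 pooled sample of total RNA, with no treatment named, and the sources used here do not give age, sex or the number of animals per pool. There were therefore no replicates, no test between tissues was made, and every difference describes these 10 samples. Values are in units of a scale that looks logarithmic, with no base stated, so no folds are given. All values below are after each array was shifted to a common median, and a probe listed at 0 can then read slightly below 0. In tissue RNA, fewer cells of a type and less RNA per cell cannot be told apart. The table pairs no gene names with the event numbers, so the members carry no gene names and the tissue labels could not be set against marker genes.

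As background, a cassette exon is kept when the splicing machinery joins it to both neighbours, and it is left out when the neighbours are joined directly. Nervous tissue is known for many exons of its own pattern, including microexons of synaptic proteins. Proteins such as Nova, Rbfox, the neuronal Ptbp2 and Srrm4 are known to bind near such exons and steer their use in neurons, while Ptbp1 keeps many neuronal exons out in other cells. Rbfox proteins also act in heart and skeletal muscle, and Mbnl proteins are known for steering exon choice in muscle and brain. None of these factors could be looked up in the table.

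The members' junction indices by tissue put brain highest and muscle next by their medians, the first of which follows from the rule. The median junction index of the 59 was 0.06 in brain and between -0.41 in muscle and -1.82 in intestine elsewhere. Over all 1094 events the median index ran only from 0.15 in salivary to 0.40 in liver, with brain at 0.30. The index does not measure a percentage of transcripts, because each probe has its own brightness.

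The probes behind the index differed in how far they moved. The median A probe of the members read 3.09 in brain, against 1.57 in intestine and 2.17 in muscle at the ends of the range for the other tissues. C1:A read 3.004 in brain and 1.69 to 2.44 elsewhere, and A:C2 read 2.94 and 1.36 to 2.25. The skipping junction C1:C2 moved less, with a median of 2.96 in brain and 2.86 to 3.39 elsewhere. Flanking exons were nearly level, with medians of 3.39 for C1 and 3.39 for C2 in brain, inside the ranges of the other tissues. Brain was thus highest in each inclusion probe by its median and inside the range of the other tissues in the skipping probe.

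Against the median of the other tissues, the members' junction index in brain was higher by 0.81 to 3.08 units, with a median of 1.20, and their body index by 0.43 to 2.40, with a median of 1.07. Across the 59 members these deviations correlated at Pearson's r = 0.45 (Spearman's rho 0.37), and across all 1094 events at 0.48 (0.40). Events are not independent replicates, and all points share the same 10 arrays.

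**Figure D1:**
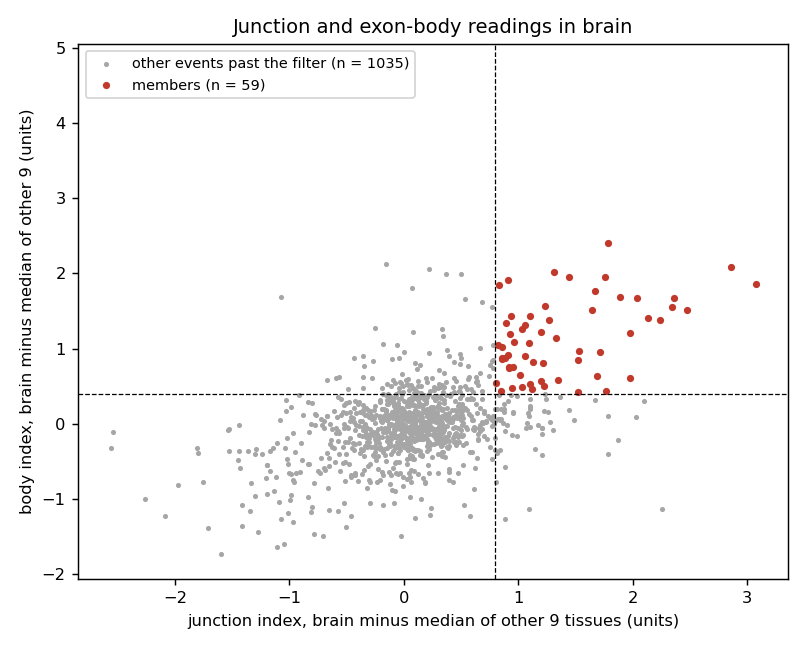
Each point is 1 of the 1094 events past the filter on flanking exons, with the junction index in brain minus the median of the other 9 tissues on the x axis and the same for the body index on the y axis, in units of the deposited scale. Dashed lines are the thresholds of 0.8 and 0.4, red points are the 59 members, and the 57 grey points right of the vertical line and below the horizontal one met the junction criterion only.

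Junction probes and exon probes are different sequences, so one reading can be set beside the other. The junction criterion alone was met by 116 events in brain, 10.6% of the 1094. Of these, 59 also met the body criterion (50.9%), and 15.9% of all 1094 events met it. Both criteria chose the members and all events share the same arrays, so these shares are a description. Among the remaining 57, the body index was higher in brain in 35 and not higher in 22. For exons more skipped in brain, chosen with the signs turned, 74 events met the junction criterion (6.76% of the 1094) and 45 of these also the body criterion (60.8% of 74, and 4.11% of the 1094). The other tissues gave shares from 25.7% in liver to 65.9% in salivary for inclusion, so the share in brain was inside their range.

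Brain had the highest junction index of all 10 tissues in 39 of the 59 members, against 14.0% of the 1094 events. It ranked next to highest in 10, at rank 3 in 8 and at rank 4 in 2. By the body index brain was highest in 32 members (10.4% of all events), and by both indices in 23 (3.47% of all events). These counts lean on the brain values that chose the members, so they show how far brain stood alone and support nothing further. For 20 members the label holds against the median of the other tissues but not against the highest of them.

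The distance from brain to the highest other tissue was small for many members. Brain minus the highest other tissue had a median of 0.16 units and ran from -0.98 to 1.40. As a guide to probe error in the absence of replicates, the deviations of C1:A and A:C2, which report the same isoform, differed by a median of 0.54 units in the members and 0.28 over all 1094 events. Only 14 of 59 members had a distance of 0.5 units or more. With either inclusion junction used alone, brain was highest by both readings in 27 members. These counts also lean on the brain values that chose the members. They stand without a share over all 1094 events and are a description.

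**Figure D2:**
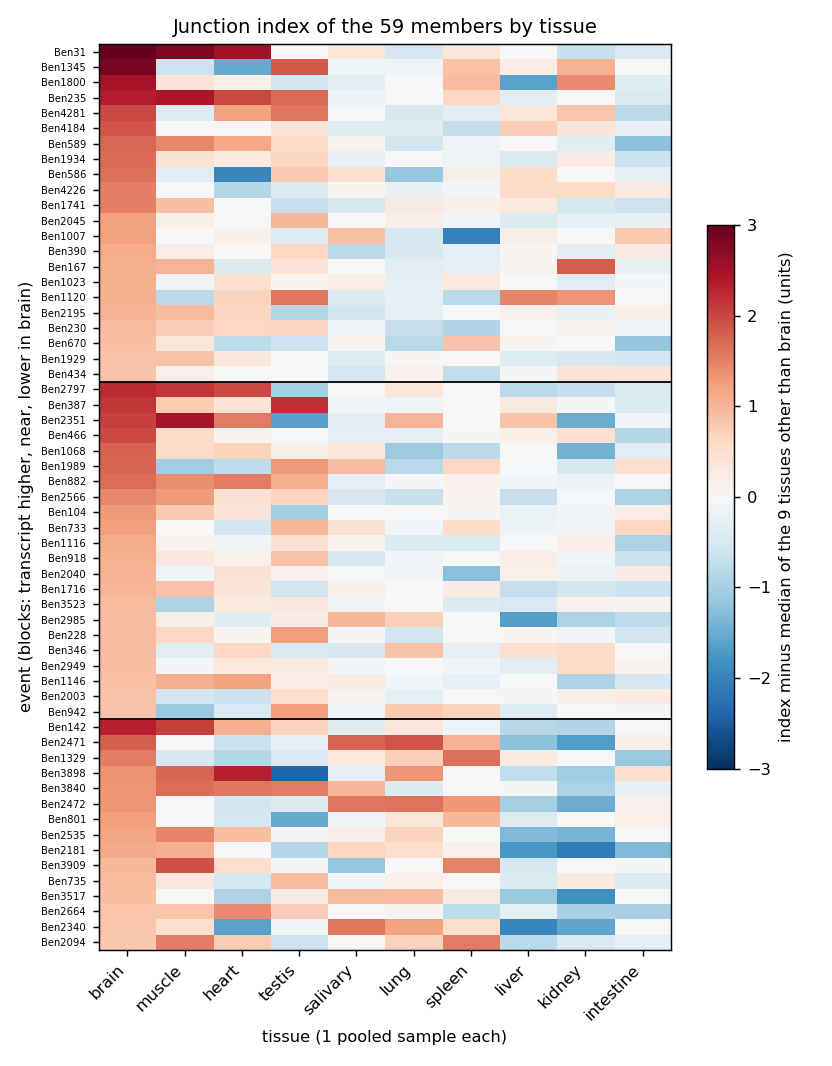
Rows are the 59 members and columns the 10 tissues (1 pooled sample each); colour is the junction index minus the median of the 9 tissues other than brain, in units. The top block holds 22 members whose flanking exons were at least 0.5 units higher in brain. Below it are 22 within 0.5 units and 15 at least 0.5 units lower. The muscle column is the next to brain in red, and some rows are also red in heart, testis, salivary, lung, spleen, kidney or liver.

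Event Ben31 was the first of the 6 events with the largest margins over the thresholds, though its inclusion junctions were dim in the other tissues, with medians of 0.51 for C1:A and 0.97 for A:C2, so the size of its margin is not exact. Its junction index was 1.34 in brain, and in the other tissues it ran from -2.42 in kidney through a median of -1.74 to 1.06 in muscle. Its A probe read 4.58 in brain, 5.14 in muscle and 5.96 in heart, but at most 3.05 (lung) in the remaining tissues. C1:A read 3.55 in brain, 3.87 in muscle and 4.78 in heart, and at most 0.96 elsewhere. Brain, muscle and heart therefore formed a high set for this exon, apart from the other 7 tissues in A, both inclusion junctions and the junction index. Its body index was higher in heart (1.05) than in brain (0.85), so brain was the highest tissue by the junction index only. Both inclusion junctions were brighter in heart and muscle than in brain, and C1:C2 was lower in brain (2.50) than in muscle (3.31) and heart (4.54). The lead of brain over muscle by this index, 0.28 units, was small beside the usual disagreement of the inclusion junctions, given above.

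Event Ben1345 separated brain from muscle and heart. All 3 inclusion probes were high in brain alone: A read 3.63 there and at most 2.01 elsewhere (muscle), C1:A 4.36 and at most 2.01 (heart), and A:C2 3.97 and at most 1.25 (muscle). The transcript itself was brighter in heart and muscle, where the mean of C1 and C2 was 5.54 and 5.23, than in brain at 4.53. Its C1:C2 junction was also highest in heart, 5.70, and read 4.10 in brain. Its junction index was 0.06 in brain, -0.95 in testis, the next tissue, and -4.31 in heart, the lowest. The inclusion probes were dim in the other tissues, with medians of 0.94 for A, 0.87 for C1:A and 0.73 for A:C2. The size of its margin is therefore not exact.

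For event Ben1800 kidney had the highest index of the other tissues. Its A probe read 2.31 in brain and 1.76 in kidney, and from -0.02 to 0.46 in the other tissues. A:C2 followed, with 2.88 in brain, 2.15 in kidney and at most 0.84 elsewhere. In liver the transcript was brightest, at 5.65 for the mean of C1 and C2 and 5.63 for C1:C2, and A there read 0.15. C1:A was highest in brain, at 3.06, but did not set kidney (1.93) apart from liver (1.82). A and A:C2 thus set brain and kidney apart from the other tissues, and C1:A set apart brain alone. Medians over the tissues other than brain were low, at 0.15 for A, 0.67 for C1:A and 0.10 for A:C2. The size of this margin is not exact either.

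Event Ben235 had both its brightest transcript and its brightest inclusion probes in brain. The mean of C1 and C2 was 5.70 in brain, 5.04 in testis and 4.38 in muscle, and from 3.07 to 4.18 in the other tissues. A read 4.94 in brain, 3.84 in testis, 3.46 in muscle and 2.64 in heart, and no more than 1.44 in the remaining 6. All junctions were higher in brain, C1:A by 4.06, A:C2 by 3.78 and C1:C2 by 1.56, the inclusion junctions from low readings elsewhere, with medians of 1.10 for C1:A and 1.34 for A:C2. By junction index muscle (-0.12) stood just above brain (-0.19), a difference smaller than the usual disagreement of the inclusion junctions.

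Event Ben2797 showed the set of brain, heart and muscle again, though its transcript was dimmest in muscle (1.99, against 3.18 in brain and 3.23 in heart). C1:A read 3.41 in brain, 3.38 in heart and 2.22 in muscle, and at most 1.23 in the others. A:C2 read 3.30, 3.65 and 2.07 in the same order, and at most 1.02 elsewhere. Testis had the lowest junction index, -2.97, against 0.24 in brain.

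Event Ben466 had the widest distance between brain and the next tissue and was picked for this after its values were seen. Its junction index was 1.01 in brain and between -1.83 in intestine and -0.39 in muscle elsewhere. A:C2 read 2.87 in brain and 0.88 to 1.84 in the others, C1:A 2.83 and 1.47 to 2.28, and C1:C2 1.84 and 1.95 to 3.005. Each of these probes placed brain outside the range of the other tissues, with inclusion up and skipping down. By the body index brain was again highest, but kidney lay close to it, at -0.12 against -0.03.

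**Figure D3:**
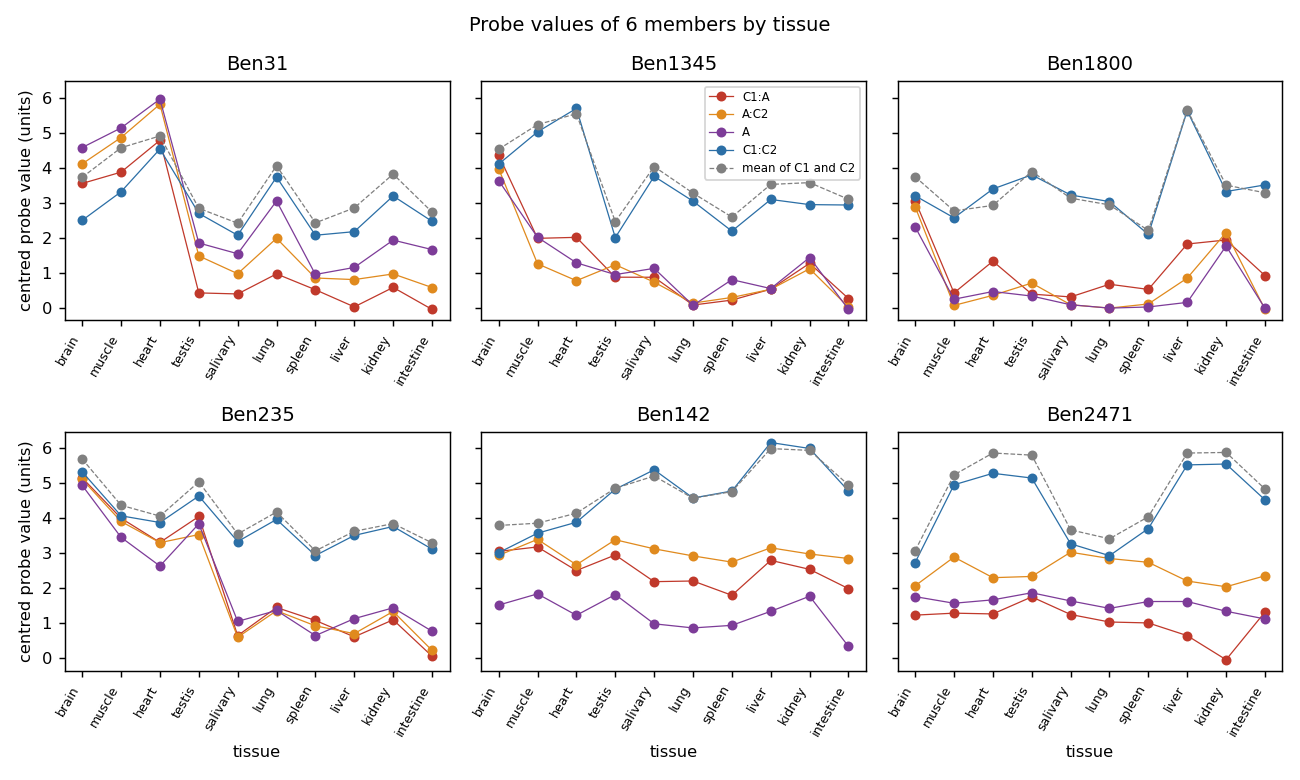
Centred values of the probes C1:A, A:C2, A and C1:C2 and of the mean of C1 and C2 (dashed) in 6 members, 1 point per tissue; lines only join the points of one probe, and tissues have no order. Inclusion probes stand high in brain in Ben1345, in brain, muscle and heart in Ben31, and, for A and A:C2, in brain and kidney in Ben1800, whereas in Ben142 and Ben2471 C1:C2 follows the dashed line of the transcript and is lowest in brain.

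The members split by how much of their transcript was in brain, taken from the mean of C1 and C2. C1 and C2 also enter the body index and the filter, so this level is tied to the rule, and the limit of 0.5 units was chosen after the values were seen. Level was at least 0.5 units higher in brain than the median of the others in 22 members (17.7% of all 1094 events), within 0.5 units in 22, and at least 0.5 units lower in 15 (17.6% of all events). The median level deviation over the 59 was 0.27 units, with 34 higher (47.3% of all events). It was -0.06 over the 36 members whose flanks reached 2.1 in all 10 tissues, and 0.06 with lung left out of the comparator, so no direction is given for the level of the members as a whole.

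In the 22 members with more transcript in brain, the inclusion probes were far higher in brain and the flanks less so. The median deviation was 1.93 for A, 2.06 for C1:A and 2.09 for A:C2, against 0.91 for C1, 0.79 for C2 and 0.68 for C1:C2. Both inclusion junctions were higher in all 22, against 33.9% of the 1094 events. These probes enter the rule and the 22 were split off by a higher level, so this count is a description. The skipping junction was lower in 7. Here the inclusion probes differed by more than the flanks, while the skipping probe was mostly higher as well.

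In the 22 members near the level of the other tissues, inclusion probes were higher and the skipping probe mostly lower. A was higher by a median of 0.93, C1:A by 0.88 and A:C2 by 1.23, whereas C1:C2 deviated by -0.34. C1:C2 was lower in 19 of the 22, against 58.7% of all events, and both inclusion junctions were higher in 17. The junction index that chose the members is made of these probes, so these counts are a description too. Event Ben2797 belongs to this set, and so does Ben1068, whose A:C2 junction read 2.81 in brain, 2.53 in heart and 2.12 in testis but 1.65 or less in the other 7 tissues.

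C1:C2 was lowest in brain relative to transcript level in event Ben4281, where the flanks were 0.52 units higher in brain. Its C1:C2 junction read 1.99 in brain, 2.01 in testis and 2.13 in heart, and between 2.36 and 3.41 in the rest. A read 2.76 in brain, 2.14 in heart and 2.06 in testis, and at most 1.34 elsewhere. Brain, testis and heart thus shared the lowest skipping and the highest A and A:C2 readings, whereas C1:A set brain (3.51) but not heart (2.61) above the rest.

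The 15 members with less transcript in brain had a different make-up. Their A probe deviated by a median of only 0.07 units, C1:A by -0.25 and A:C2 by -0.04, while C1 deviated by -0.72, C2 by -1.03 and C1:C2 by -1.14. C1:C2 was lower in all 15 (58.7% of the 1094 events), both inclusion junctions were higher in 2 (33.9%), and A was higher by 0.5 units or more in 3. The lower flanks follow from how these 15 were split off. The other probes enter the rule, so these counts are a description, and those for A stand without a share over all events. Single members differed from this make-up: Ben3898 had higher inclusion probes in brain, with deviations of 0.83 (A), 1.20 (C1:A) and 0.92 (A:C2). In brain A read below 1.21, the median of all INT probes, in 5 of the 15, and its median was 1.71, against 3.82 in the members with more transcript. INT probes are the dimmest kind on the array and serve here as a mark of low signal.

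**Figure D4:**
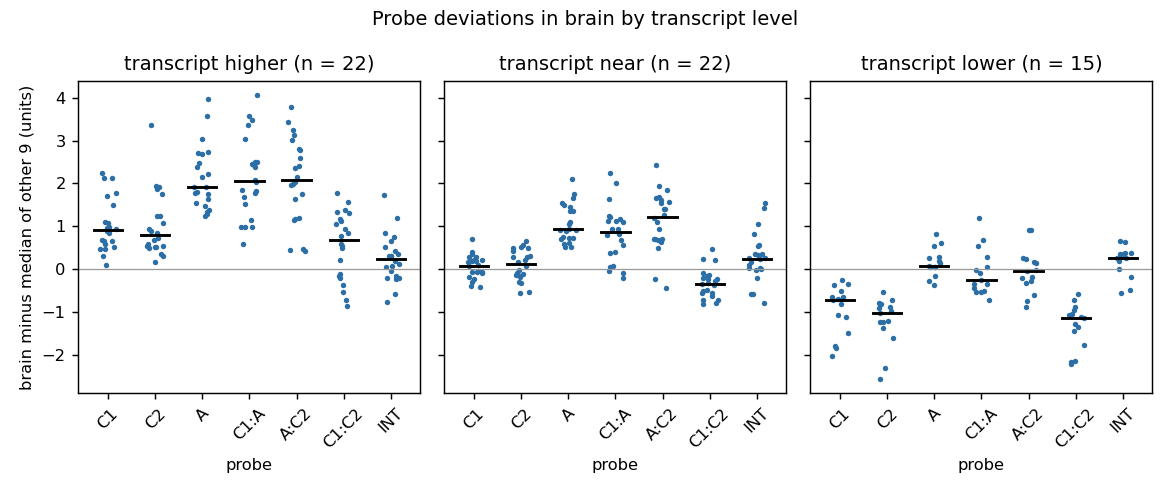
Each point is 1 member; the y axis is the probe's value in brain minus the median of the other 9 tissues, in units, and black bars are medians. Panels hold the 22, 22 and 15 members with transcript higher, near or lower in brain; A, C1:A and A:C2 lie well above 0 in the first and middle panels and around 0 in the last, where C1, C2 and C1:C2 lie below it.

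In these 15 the index tracked the transcript level over the tissues. The correlation of junction index and level over the 10 tissues was below 0 in each of the 15, with a median r of -0.93. The rule and the split by level put brain at a high index and a low level in these 15, which pulls r below 0. With brain left out, r was again below 0 in all 15, with a median of -0.93. It was then -0.5 or less in 13 of them, against 20.2% of all 1094 events. Over the 10 tissues the median of all 1094 events was 0.17, and 17.8% of events had r of -0.5 or less, against 13 of these 15. The 22 members with more transcript had a median of 0.26 and the 22 near level -0.35 over the 10 tissues. With brain left out, these medians were -0.13 and -0.52, against 0.17 over all events. C1:C2 followed the level in the 15 at a median r of 0.97, but the mean of the inclusion junctions followed it at only 0.15, against 0.84 over all events. The points of each correlation are 10 tissues on the same arrays, and the junction index and the level share no probe. The part of probe background in these readings was not tested.

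Event Ben142 was the strongest of this kind. Its C1:C2 junction read 3.02 in brain and 3.58 in muscle, and from 3.89 in heart to 6.17 in liver in the rest. A:C2, in contrast, read 2.94 in brain and 2.67 to 3.40 elsewhere, so brain was inside the range of the others. Its A probe read 1.52 in brain and 0.34 to 1.84 elsewhere. The junction index was -0.02 in brain, -0.29 in muscle and -3.24 in kidney, and the probe that separated these tissues most was C1:C2.

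Events Ben2471 and Ben2472 may not be separate observations. Over the 10 tissues their level correlated at r = 0.998, C1 at 0.996, C2 at 0.997 and the junction index at 0.988, and no other of the 1711 member pairs had a level correlation above 0.99. Whether they share a transcript is not given in the sources used here. In both, C1:C2 was low in brain (2.74 and 2.81), lung (2.93 and 2.87) and salivary (3.27 and 3.27) and highest in kidney or liver, at 5.55 and 5.61. A of Ben2471 stayed between 1.12 and 1.87 in all tissues. Lung had a junction index slightly above brain in both, -0.99 against -1.08 and -0.95 against -1.28, and so had salivary in Ben2472.

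Which of the other tissues had the highest index was not set directly by the rule, which used only their median. In 20 members that tissue lay above brain. By junction index muscle was the highest of the other 9 tissues in 19 of the 59 members (32.2%), against 8.68% of the 1094 events. Testis was highest in 17 (28.8% against 24.6%), heart in 7 (11.9% against 9.51%), and liver in 1 (1.69% against 19.4%). Of the rest, kidney was highest in 4 (13.4% of all events), salivary in 4 (6.49%), lung in 3 (4.48%), spleen in 3 (7.40%) and intestine in 1 (6.03%). Muscle was highest in 7 of the 22 members with more transcript in brain, in 6 of the 22 near level and in 6 of the 15 with less. Testis led in 7, 9 and 1 of these. The comparisons of different tissues share their comparator samples, so only these levels are set side by side.

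The place of muscle depended on the probes read. It was highest in 19 members with C1:A alone (9.23% of all events) and in 16 with A:C2 alone (7.04%), but in 10 by the body index (8.96%). By the body index testis was highest in 14 (21.0%), heart in 10 (17.7%) and lung in 8 (3.47%). The A probe alone was highest in muscle in 12 (7.77%), in testis in 13 (23.3%) and in heart in 10 (12.5%). A single junction can carry a muscle value: in event Ben2094 C1:A read 3.24 in muscle and 3.24 in spleen but 0.74 or less in the other 8 tissues, while A:C2 read 0.14 in both.

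**Figure D5:**
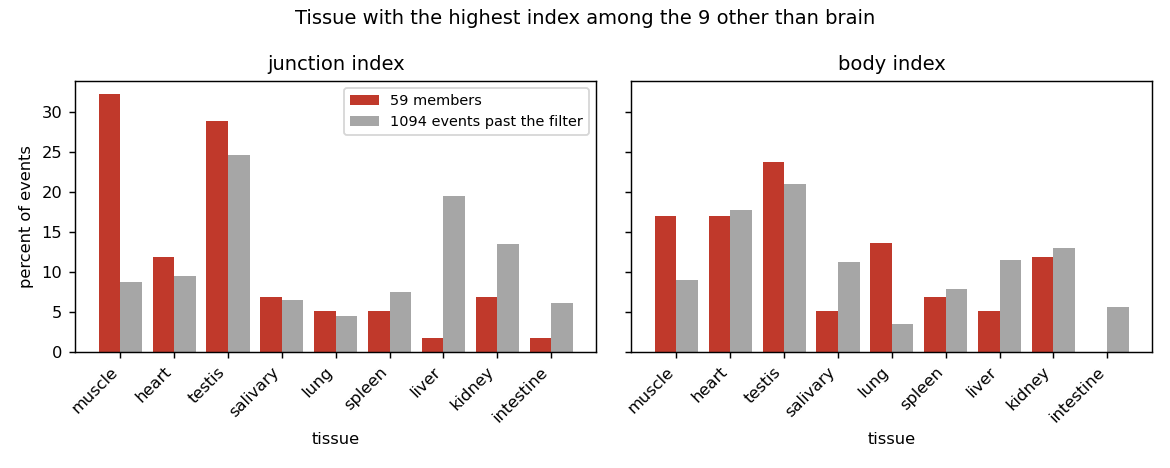
Bars give the percentage of events in which a tissue had the highest index among the 9 tissues other than brain, for the 59 members (red) and the 1094 events past the filter (grey), by junction index on the left and body index on the right. Muscle is at 32.2% of members against 8.68% of all events by the junction index and at 16.9% against 8.96% by the body index; liver is low in the members in both panels.

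Members with a high index in another tissue took several forms. Event Ben2351 had a higher junction index in muscle than in brain, 1.31 against 0.87, with heart at 0.38 and every other tissue below 0. That lead of muscle was smaller than the usual disagreement of the inclusion junctions. By its body index only heart (-0.21) stood above brain (-0.53). Its A probe read 1.98 in brain, 2.09 in heart and 2.15 in muscle, and at most 1.25 in the rest. Event Ben3898 had a higher index in heart (0.71) and muscle (0.12) than in brain (-0.26), and its A probe was likewise brighter in heart (4.51) and muscle (4.28) than in brain (3.08). Lung (-0.28) lay next to brain by the junction index and had the highest body index, 0.37 against -0.17 in brain. In testis, where its transcript was brightest at 5.35, A was lowest at 1.77 and the index was -4.01. For such exons brain belonged to a group of tissues and did not have its highest junction index.

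INT probes entered no part of the rule. The INT probe read higher in brain than over the other tissues by their median in 44 of the 59 members (74.6%), against 49.2% of the 1094 events, with a median deviation of 0.26 units against -0.01. In the 57 events that met the junction criterion only it was higher in 31, with a median of 0.05, and in the 45 exons more skipped in brain in 19, with a median of -0.15. The deviation was of similar size in the 3 sets of members, with medians of 0.25, 0.24 and 0.26 for more, near and less transcript. Among members whose INT probe read above the INT median in brain or in the other tissues, 26 of 35 were higher in brain (74.3%), against 48.0% of 704 such events. Taking each other tissue in turn, the members' INT probes were higher in kidney in 38 (56.6% of all events), in salivary in 37 (65.6%), in heart in 35 (46.7%) and in testis in 35 (49.1%). They were higher in spleen in 27 (55.9%), in liver in 24 (41.0%), in muscle in 20 (48.1%), in intestine in 18 (39.8%) and in lung in 17 (48.0%). The members' median INT deviation in kidney was 0.26 units, the same size as in brain. It was 0.17 in heart, 0.15 in testis and 0.11 in salivary, and from -0.15 in intestine to -0.03 in spleen in the remaining tissues. The median INT deviation in brain was 0.12 after quantile normalization, with 38 of 58 members higher, and 0.11 against the mean of the other tissues, with 39 of 63 higher.

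Low signal bore on the size of many shifts. In 18 members the A probe's median over the other tissues was below the INT median, as was C1:A in 13 and A:C2 in 20. In brain this was so for 5, 3 and 6 members. No share over all events past the filter stands beside these counts, so they are not read as particular to the members. Of the members' 3540 exon and junction values 31 were listed at 0, of which 1 was in brain. Shifts that start from such readings are not exact sizes and set no order among members. With the inclusion junctions in brain and C1:C2 in the other tissues required to exceed the INT median, 54 members remained.

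At the edge of the rule, events differed little from members. The 3 members just inside the junction threshold were Ben2094, Ben2340 and Ben2664, with index deviations of 0.81, 0.83 and 0.83. All 3 had less transcript in brain, and brain ranked 3 in each. The 3 events just outside, with the body criterion met, were Ben3007, Ben2172 and Ben716, each at 0.78. At the body threshold Ben1741, Ben1068 and Ben434 lay just inside, at 0.43, 0.44 and 0.44. Ben1371 lay just outside at 0.40, 0.3986 before rounding, with Ben3310 and Ben874 at 0.38. Of the 2032 events outside the filter on flanking exons, 101 met both index criteria, beside 59 of the 1094 past it (5.39%). These 101 are not members, because a flank was too dim.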

How the data were processed

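For each of the 10 samples the authors deposited 21882 probe values, 7 for each event, taken here as a score, from 0 to 8.66, with array medians of 2.04 to 2.19. Scanner, background correction, normalization and scale: not given in the sources used here. No sample columns were left unused. Arrays were centred on their medians, with the mean of the medians (2.12) added back, and the rule was applied with Python 3.11.15, numpy 2.4.6 and pandas 2.3.3 (matplotlib 3.10.9 for plots). A tissue counted for the filter where C1 and C2 both passed. The rule steps were tested on simulated data. With 1 sample per tissue no test was made, and precision is limited by the small number of arrays.

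Members, measures and alternatives were chosen with earlier results of these data known. Events named were the 6 furthest past both thresholds, those next to a threshold, up to 4 that met the rule in a further tissue, and the extremes of skipping and inclusion; Ben466, Ben2471 and Ben2472 were chosen after their values were seen. A planned count of members meeting the rule in further tissues was left out, since those comparisons share comparator samples, and planned gene lists needed gene names. Alternatives were other scalings, comparators, filters, thresholds and junctions.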

Additional observations from a re-analysis of the deposited data

How the results depend on the processing

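No paired analysis was possible because there is 1 sample for each tissue. The number of members ranged from 55 to 67 with 1 tissue at a time left out of the comparator, of which 52 to 55 were among the 59. It was 36 with flanks at 2.1 in all 10 tissues and 160 with no filter on flanks, as these filters keep fewer or more events by construction. Columns as deposited gave 61 members (58 shared), quantile normalization 58 (53 shared) and the mean of the other tissues 63 (53 shared). The median level deviation was -0.0644 with flanks at 2.1 in all tissues and ranged from 0.0637 (without lung) to 0.328 with a tissue left out; the cause was not tested. The count of members with muscle highest of the other tissues was 10 by the body index, a reading added after seeing the data, and 18 to 20 with a tissue left out. With a tissue left out, the share of junction events that met the body criterion was 48.2% to 58.2%. It was 43.9% after quantile normalization and 43.4% at a junction threshold of 0.6. The INT deviation (0.16 to 0.24) and the deviation of C1:C2 minus level (-0.44 to -0.32) kept their direction with a tissue left out. Each such INT deviation was below the 0.26 of the main setting. INT was then higher in brain in 62.9% to 70.7% of members, against 74.6%. The remaining alternatives moved no count by more than 1.5 times and no median by 0.2 units. Low signal, the lack of replicates and the unknown scale limit all sizes.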
